A study of Rattus norvegicus with 12 samples.

Results

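Matrix metalloproteinases and their inhibitors are described here by 10 genes: the metalloproteinases Mmp2, Mmp3, Mmp9 and Mmp14, the tissue inhibitors Timp1, Timp2, Timp3 and Timp4, and the related proteases Adamts1 and Adamts2. They were taken by symbol from the count and FPKM tables, and all 10 were found among 18483 genes. FPKM counts fragments per kilobase of transcript, scaled to depth, so it is the level used to compare genes. Of the 10, 9 had enough counts to be tested, and Mmp3 did not.

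RNA was sequenced from neonatal rat ventricular myocytes (NRVMs) of Sprague-Dawley rats in 4 groups of 3 biological replicates, 12 samples in all. siNeg cells carried a control siRNA and siSlc39a2 cells carried 1 siRNA sequence targeting Slc39a2, which encodes a zinc importer of the plasma membrane. siNeg PE and siSlc39a2 PE cells were transfected in the same way and given phenylephrine (PE), an agonist of alpha-1 adrenergic receptors that induces hypertrophy, for 36 h from 12 h after transfection. Every group was thus transfected, and no untransfected cells entered the comparisons. The myocytes were enriched on a Percoll gradient from ventricles of neonates and cultured without serum during treatment, and remaining non-myocytes can contribute RNA.

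Matrix metalloproteinases are zinc-dependent endopeptidases that cleave collagens and other proteins of the extracellular matrix. They are made as inactive proenzymes. Mmp14 sits in the plasma membrane and, with Timp2 as a bridge, activates the proenzyme of the gelatinase Mmp2. Timp proteins block the active site of metalloproteinases, and in the heart the balance of proteases and inhibitors accompanies remodelling of the matrix. Adamts2 removes the N-terminal propeptide of fibrillar procollagens, and Adamts1 cleaves the proteoglycans versican and aggrecan.

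Total counts per sample were between 24065539 and 28603854, and no replicate repeated another, since pairs within a group differed beyond counting error (chi-square over its degrees of freedom from 4.75 to 33.5). Counts of Slc39a2 were 50, 50 and 59 in siNeg and 21, 11 and 2 in siSlc39a2. With PE it had 95, 198 and 182 counts in siNeg PE and 31, 25 and 38 in siSlc39a2 PE. All knockdown samples lay below all siNeg samples of the same treatment, in the direction their labels give. Its log2 fold change was -2.35 without PE (standard error 0.46, edgeR adjusted p = 9.8e-04) and -2.33 with PE (standard error 0.38, edgeR adjusted p = 2.24e-04). Defining markers of cardiomyocytes summed to between 20500 and 25600 FPKM in the 12 samples, and those of fibroblasts to between 592 and 2610 FPKM. None of the markers of either cell type was at 0 in every sample.

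Most of these genes fell with Slc39a2 knockdown, with and without PE, while Timp1 rose with PE in siNeg cells. Without PE, 8 of the 9 tested genes fell and 1 rose at an adjusted p below 0.05 (edgeR's quasi-likelihood test with Benjamini-Hochberg adjustment over 13967 genes). Of all genes tested, 26.4% fell and 22.8% rose by this measure. Of the 9 genes, 5 also fell by more than 1 on the log2 scale, against 9.78% of all genes past both thresholds in either direction. These were Mmp2, Mmp9, Mmp14, Timp4 and Adamts2. Among PE-treated cells, 8 of 9 fell and Adamts1 did not pass, where 28.1% of all genes fell and 29.2% rose. Of them, 6 passed both thresholds, which added Timp2, against 11.6% of all genes. The median log2 fold change of the 9 genes was -1.16 without PE and -1.56 with PE, beside -0.02 and 0.01 over all genes tested. The knockdown comparisons without and with PE use separate samples. With limma on log2(FPKM + 1), where a pseudocount of 1 shrinks the changes of genes near or below 1 FPKM, the log2 fold changes of Mmp9 were -0.33 and -0.29 and those of Timp4 -0.48 and -0.46, and 3 genes (Mmp2, Mmp14 and Adamts2) passed both thresholds in each comparison.

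**Figure D1:**
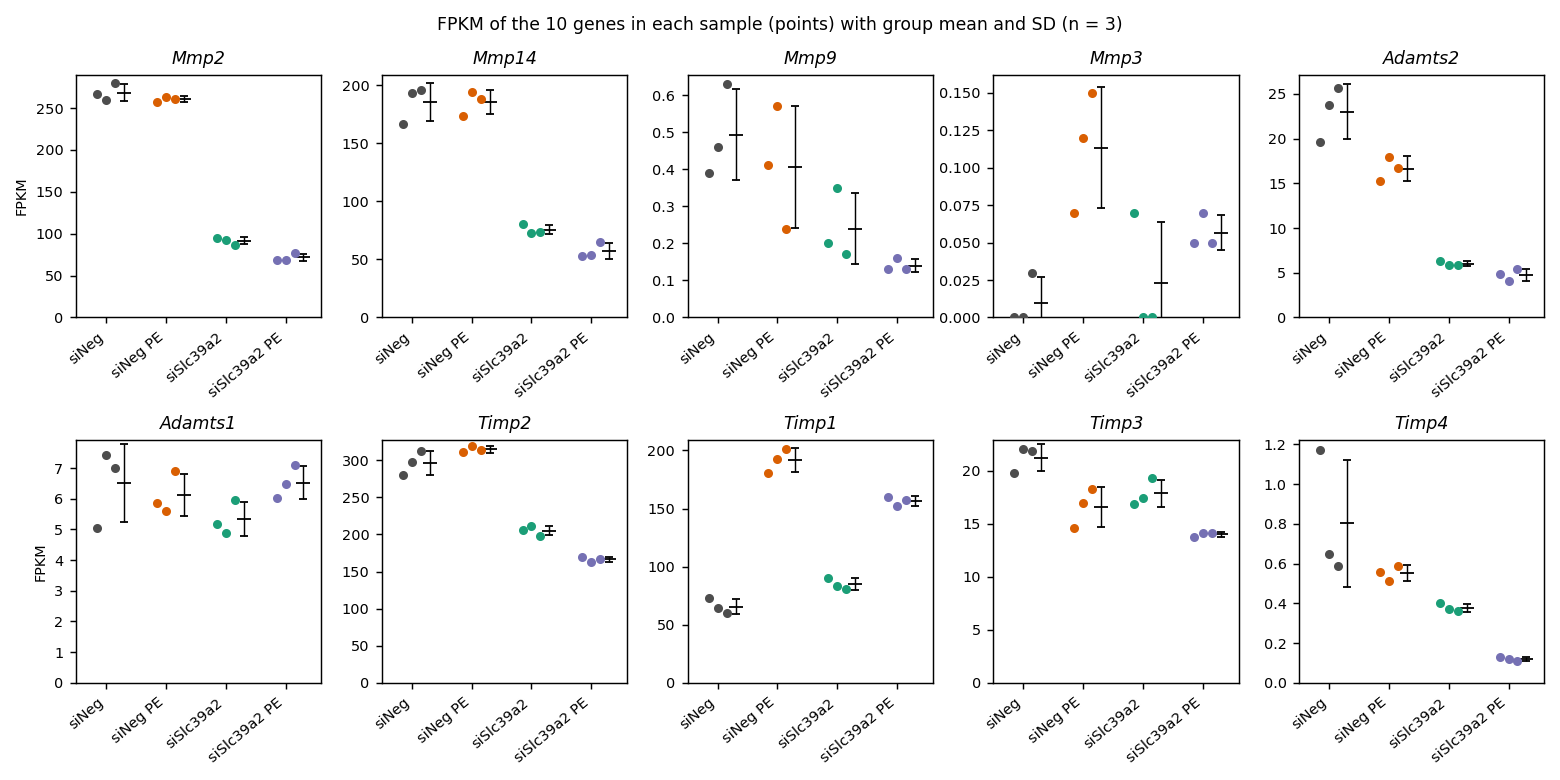
FPKM (y axis, separate scale for each gene) of the 10 genes in each of 12 samples (points, 3 per group), with the group mean and SD as the black bar. Mmp2, Mmp14, Timp2 and Adamts2 sit lower in all 6 knockdown samples than in all 6 siNeg samples, while Timp1 is highest in the 6 PE samples.

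Promoters are shown for Timp1, which PE raised, and for Timp2 and Adamts2, which fell with knockdown. RefSeq promoter sequences of GRCr8 matched 7 of the 10 genes, and the 250 bases before the annotated start are printed on the strand of the gene. Capitals mark matches on either strand to the AP-1 motif (TGANTCA), the ETS/PEA3 motif (AGGAAG), the GC box (GGGCGG) and the TATA box (TATAAA).
Timp1 (chrX:3771123-3771372, minus strand): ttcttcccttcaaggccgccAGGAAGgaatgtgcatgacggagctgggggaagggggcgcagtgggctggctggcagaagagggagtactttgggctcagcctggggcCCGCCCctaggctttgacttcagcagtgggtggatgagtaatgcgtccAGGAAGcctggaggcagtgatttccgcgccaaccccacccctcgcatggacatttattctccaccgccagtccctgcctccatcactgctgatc
Timp2 (chr10:104089215-104089464, minus strand): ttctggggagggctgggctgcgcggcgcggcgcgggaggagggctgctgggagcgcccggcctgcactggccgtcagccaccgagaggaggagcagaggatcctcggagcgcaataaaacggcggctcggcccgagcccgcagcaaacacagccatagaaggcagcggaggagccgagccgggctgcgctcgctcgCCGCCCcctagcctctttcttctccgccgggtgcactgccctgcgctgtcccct
Adamts2 (chr10:35421780-35422029, plus strand): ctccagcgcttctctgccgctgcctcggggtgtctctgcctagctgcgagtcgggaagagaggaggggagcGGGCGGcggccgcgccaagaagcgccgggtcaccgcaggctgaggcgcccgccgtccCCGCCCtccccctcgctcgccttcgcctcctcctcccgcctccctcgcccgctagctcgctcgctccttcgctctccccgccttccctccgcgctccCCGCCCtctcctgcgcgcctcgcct
Timp1 holds AGGAAG 230 and 94 bases before the start and a GC box at 142. Timp2 holds a single GC box at 54, and Adamts2 holds GC boxes at 179, 122 and 25. Exact AP-1 and TATA letters as given above are in none of these 3 windows, and variants of the motifs were not sought. The motifs are not particular to these genes, since Timp3, which changed less with knockdown than Adamts2, also holds 3 GC boxes, and Mmp3 and Timp4 hold the ETS/PEA3 letters. Of 33469 rat promoters of the same length, 6.34% hold the AP-1 motif, 29.5% the ETS/PEA3 motif, 30.5% the GC box and 12.9% the TATA box. Timp2 and Adamts2 had GC contents of 72.0% and 75.6%, Timp1 of 61.2%, and the median over all promoters was 51.2%. A match of letters is a description and not a binding site.

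Mmp2, gelatinase A, was the most highly expressed of the 6 proteases by FPKM. Its FPKM was 266, 259.6 and 279 in siNeg, 95.4, 92.0 and 87.1 in siSlc39a2, 257, 264 and 261 in siNeg PE, and 68.7, 69.1 and 77.1 in siSlc39a2 PE. The 6 knockdown samples all lay far below the 6 siNeg samples, and the siSlc39a2 PE samples lay below those without PE. Mean levels were 268 ± 10.1 in siNeg and 91.5 ± 4.19 in siSlc39a2 (SD, n = 3). Mmp2 fell 3.24-fold with knockdown in untreated cells (log2 fold change -1.70, standard error 0.06, edgeR adjusted p = 2.53e-10). In PE-treated cells it fell 3.66-fold (log2 fold change -1.87, standard error 0.07, edgeR adjusted p = 1.1e-10). PE itself gave a log2 fold change of -0.12 in siNeg cells (95% interval -0.26 to 0.01, edgeR adjusted p = 0.125), where the samples overlapped. In siSlc39a2 cells it fell with PE by 0.30 on the log2 scale (edgeR adjusted p = 0.00146).

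Mmp14, the membrane protease that activates Mmp2, had the same order of groups, and its counts were whole in 9 of 12 samples. Its FPKM was 166, 193 and 196 in siNeg, 80.1, 73.0 and 73.6 in siSlc39a2, 174, 194 and 188 in siNeg PE, and 53.2, 54.1 and 65.3 in siSlc39a2 PE. Again no knockdown sample reached any siNeg sample, and siNeg and siNeg PE overlapped. Mmp14 fell 2.65-fold with knockdown without PE (log2 fold change -1.40, standard error 0.08, edgeR adjusted p = 9.5e-09). With PE it fell 3.14-fold (log2 fold change -1.65, standard error 0.08, edgeR adjusted p = 2.13e-09). In siNeg cells PE gave a log2 fold change of -0.08 (95% interval -0.24 to 0.08), and in siSlc39a2 cells Mmp14 fell with PE by 0.32 on the log2 scale (edgeR adjusted p = 0.00246). Of the 36 pairs of tested genes among the 9, Mmp2 and Mmp14 had the most similar pattern over the 4 group means, with a root mean square difference of 0.13 in centred log2 CPM (counts scaled to library size).

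Mmp9, gelatinase B, which leukocytes also produce, had low counts. It had 31, 37 and 48 counts in siNeg, 16, 29 and 12 in siSlc39a2, 33, 46 and 19 in siNeg PE, and 10, 13 and 10 in siSlc39a2 PE. Knockdown samples lay below siNeg samples in each treatment, with a gap of a few counts at the closest. Its log2 fold change was -1.16 without PE (standard error 0.34, edgeR adjusted p = 0.0136) and -1.56 with PE (standard error 0.37, edgeR adjusted p = 0.00322). The call without PE rested on single libraries. It was -0.96 without siNeg replicate 3, -1.03 without siSlc39a2 replicate 1 and -0.92 without siSlc39a2 replicate 3, with edgeR adjusted p-values of 0.0594, 0.0537 and 0.0721. The summed level of macrophage markers was between 69.8 and 99.1 FPKM in siNeg and between 41.0 and 50.9 in siSlc39a2. Lyz2 alone made up 70.3 to 86.6% of the sum in the 12 samples. Of the 7 tested, 3 fell without PE (Lyz2, Csf1r and Cd68) and 4 did not pass, where 26.4% of all genes fell. With PE, the sum was between 34.8 and 45.6 FPKM in siNeg PE and between 28.6 and 34.0 in siSlc39a2 PE, where 2 of 7 fell, against 28.1% of all genes. From siNeg to siNeg PE 4 of 7 fell, where 25.7% of all genes fell. Mmp9 had a log2 fold change of -0.35 there and did not pass (standard error 0.32, edgeR adjusted p = 0.383). The part of macrophage RNA in the Mmp9 result was not tested.

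Mmp3, stromelysin-1, had 0, 0 and 1 counts in siNeg, 3, 0 and 0 in siSlc39a2, 3, 5 and 6 in siNeg PE, and 2, 3 and 2 in siSlc39a2 PE. The siNeg PE samples lay above the siNeg samples, and neighbouring groups in the order of levels overlapped. Summed over the replicates and scaled to depth, siNeg PE had 13.0 times the count of siNeg, with an exact 95% interval of 1.98 to 551 that covers counting error only. The ratio of siSlc39a2 PE to siNeg PE was 0.497, with an interval of 0.17 to 1.32, so a difference was not detectable at this depth.

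Among the inhibitors, Timp2 was the most abundant in siNeg cells and fell with knockdown. Its FPKM was 279.7, 298 and 312 in siNeg, 206, 211 and 199 in siSlc39a2, 311, 319.8 and 313 in siNeg PE, and 169.5, 163 and 167 in siSlc39a2 PE. Samples of siNeg and siNeg PE overlapped, all siSlc39a2 samples were lower, and all siSlc39a2 PE samples were lower still. Timp2 fell 1.78-fold without PE (log2 fold change -0.83, standard error 0.06, edgeR adjusted p = 1.17e-07). In the other settings with all replicates this log2 fold change was between -0.833 and -0.555, so its size depends on the measure. Timp2 fell 2.12-fold with PE (log2 fold change -1.09, standard error 0.06, edgeR adjusted p = 1.06e-08), although limma on log2(FPKM + 1) gave -0.92, short of the fold threshold. PE gave a log2 fold change of -0.03 in siNeg cells (95% interval -0.15 to 0.10). In siSlc39a2 cells Timp2 fell with PE by 0.28 on the log2 scale (edgeR adjusted p = 0.00127), although limma on log2(FPKM + 0.1) gave -0.18 (adjusted p = 0.0651).

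Timp1, which many cells induce on stimulation, was the only one of the 9 genes that passed both thresholds with PE in siNeg cells. Its FPKM was 72.9, 64.0 and 59.8 in siNeg, 90.6, 83.3 and 80.5 in siSlc39a2, 181, 193 and 201 in siNeg PE, and 160.3, 152 and 157 in siSlc39a2 PE. None of the groups overlapped in FPKM, and siNeg PE was the highest. By unscaled count, siSlc39a2 replicate 3 (1355.29) lay below siNeg replicate 1 (1390.59). Timp1 rose 2.74-fold with PE in siNeg cells (log2 fold change 1.46, standard error 0.09, edgeR adjusted p = 1.48e-07). It rose 1.91-fold with PE in siSlc39a2 cells (log2 fold change 0.93, standard error 0.09, edgeR adjusted p = 2.9e-06). With knockdown it rose by a log2 fold change of 0.23 without PE (standard error 0.09, edgeR adjusted p = 0.0429) and fell by 0.29 on the log2 scale with PE (standard error 0.09, edgeR adjusted p = 0.0104). The difference between these knockdown effects was -0.52 (95% interval -0.79 to -0.26, edgeR adjusted p = 0.0343), and Timp1 was the only one of the 9 for which this difference passed, against 3.61% of all genes. With 1 library left out it passed in 3 of 12 fits, those without siNeg replicate 1, siSlc39a2 replicate 3 or siSlc39a2 PE replicate 1. Without siNeg replicate 1 the difference also passed for Timp4 (-1.60, edgeR adjusted p = 0.045) and Adamts1 (0.64, edgeR adjusted p = 0.0343). Leaving out siNeg replicate 3 lowered the log2 fold change without PE to 0.15 (edgeR adjusted p = 0.172), and that rise also missed the threshold without siNeg replicate 2, siNeg PE replicate 2, siSlc39a2 PE replicate 2, siSlc39a2 replicate 1 or siSlc39a2 replicate 2. In the fit on siSlc39a2 and siNeg alone it was 0.26 (edgeR adjusted p = 0.0553). The counts of Timp1 were not whole numbers in any of the 12 samples, so its values are uncertain.

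**Figure D2:**
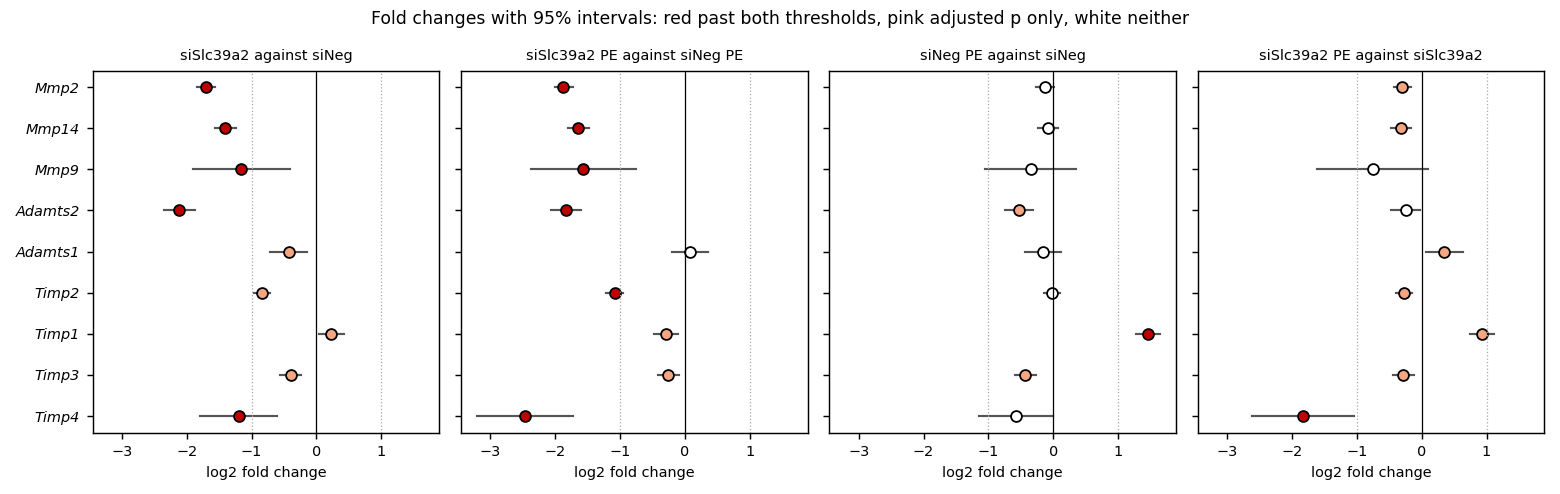
Log2 fold changes (x axis) of the 9 tested genes in the 4 comparisons, with 95% intervals as lines. Red points pass both thresholds, pink points the adjusted p alone and white points neither. Mmp2, Mmp14, Adamts2, Timp4 and Mmp9 are red in both knockdown comparisons, and Timp1 is the only red point with PE in siNeg cells.

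Timp3, the inhibitor that binds to the matrix, was highest in siNeg cells and lower in the other groups. Its FPKM was 19.8, 22.1 and 21.8 in siNeg, 16.9, 17.4 and 19.3 in siSlc39a2, 14.6, 16.9 and 18.3 in siNeg PE, and 13.7, 14.2 and 14.1 in siSlc39a2 PE. The siNeg samples were all the highest and the siSlc39a2 PE samples all the lowest, with the other groups overlapping between them. Timp3 fell with knockdown by 0.40 on the log2 scale without PE (standard error 0.08, edgeR adjusted p = 0.00088). It fell with PE by 0.43 on the log2 scale in siNeg cells (standard error 0.08, edgeR adjusted p = 0.000645). The log2 fold change of knockdown with PE was -0.25 (edgeR adjusted p = 0.0123), and without siNeg PE replicate 3 it was -0.18 (edgeR adjusted p = 0.0633).

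Timp4, known for its expression in the heart, was rare in these cultures. It had 47, 29 and 25 counts in siNeg, 18, 17 and 13 in siSlc39a2, 25, 23 and 25 in siNeg PE, and 4, 4 and 5 in siSlc39a2 PE. The siSlc39a2 PE samples stood just above the 3 counts taken as detected, and siNeg replicate 1 was above the other siNeg replicates. Its log2 fold change was -2.46 with knockdown among PE-treated cells (standard error 0.34, edgeR adjusted p = 6.69e-05) and -1.20 without PE (standard error 0.27, edgeR adjusted p = 0.00295). Without siNeg replicate 1 the latter was -0.87 (edgeR adjusted p = 0.0169), which misses the threshold on the fold. In siSlc39a2 cells Timp4 fell with PE by 1.84 on the log2 scale (standard error 0.36, edgeR adjusted p = 0.000881), the only one of the 9 genes past both thresholds there, although limma on log2(FPKM + 1) gave -0.28 (adjusted p = 0.0697). In siNeg cells PE gave -0.57 (edgeR adjusted p = 0.0849), and -0.74 without siNeg replicate 3 (edgeR adjusted p = 0.0452).

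Timp1, Timp3 and Timp4 each lie within a synapsin gene (Syn1, Syn3 and Syn2) in the RefSeq annotation of GRCr8. This overlap is of whole gene spans, and overlap of exons was not examined. Whether the libraries kept strand is not given in the sources used here, and sharing of reads between overlapping genes was not tested. Counts were whole in 0 of 12 samples for Timp1 and 12 for Syn1, in 12 for Timp3 and 0 for Syn3, and in 12 for Timp4 and 11 for Syn2. Syn1 had between 30 and 117 counts, Syn3 between 3.71 and 14.9, and Syn2 between 114 and 258, which is more than Timp4 had in any sample. Timp2 overlaps Cep295nl, which had 2 to 8 counts, and Adamts2 overlaps LOC134480782, for which no counts were analysed here. No overlapping gene was annotated for Mmp2, Mmp3, Mmp9, Mmp14 or Adamts1.

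Adamts2, the procollagen N-proteinase, showed the largest fold change of the 9 genes with knockdown in untreated cells. Its FPKM was 19.6, 23.7 and 25.6 in siNeg, 6.33, 5.86 and 5.82 in siSlc39a2, 15.2, 17.97 and 16.7 in siNeg PE, and 4.81, 4.08 and 5.40 in siSlc39a2 PE. None of the 4 groups overlapped. Adamts2 fell 4.33-fold with knockdown without PE (log2 fold change -2.11, standard error 0.11, edgeR adjusted p = 5.56e-09). It fell 3.55-fold with PE (log2 fold change -1.83, standard error 0.11, edgeR adjusted p = 2.57e-08). With PE in siNeg cells it fell by 0.53 on the log2 scale (standard error 0.10, edgeR adjusted p = 0.00115), and in siSlc39a2 cells its log2 fold change with PE was -0.25 (edgeR adjusted p = 0.0614). The latter passed without siNeg replicate 1 (edgeR adjusted p = 0.0407) or siSlc39a2 PE replicate 3 (-0.34, edgeR adjusted p = 0.022). It also passed with RLE size factors (edgeR adjusted p = 0.0496), in DESeq2 (-0.27, adjusted p = 0.0383) and in limma on log2(FPKM + 1) (-0.34, adjusted p = 0.0124) and on log2(FPKM + 0.1) (-0.41, adjusted p = 0.0129), so this call depends on the fit.

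Adamts1, a protease that cleaves matrix proteoglycans, had overlapping levels. Its FPKM was 5.05, 7.44 and 7.0 in siNeg, 5.17, 4.87 and 5.97 in siSlc39a2, 5.87, 5.61 and 6.90 in siNeg PE, and 6.01, 6.47 and 7.09 in siSlc39a2 PE. All neighbouring groups in the order of levels overlapped. It passed the adjusted p with knockdown without PE, at a log2 fold change of -0.43 (standard error 0.13, edgeR adjusted p = 0.0157), although samples overlapped. Without siNeg replicate 2 this was -0.32, without siNeg replicate 3 it was -0.38 and without siSlc39a2 replicate 2 it was -0.37, and none of these passed. With PE the knockdown gave 0.08 (95% interval -0.20 to 0.36). Its rise with PE in siSlc39a2 cells, by a log2 fold change of 0.35 (edgeR adjusted p = 0.0333), was lost without siSlc39a2 PE replicate 2 or 3 and without siSlc39a2 replicate 1 or 2, with log2 fold changes from 0.29 to 0.36, and in limma on log2(FPKM + 1) (0.19, adjusted p = 0.095) and on log2(FPKM + 0.1) (0.22, adjusted p = 0.102).

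Over the 9 genes, PE in siNeg cells raised 1 (Timp1) and lowered 2 (Timp3 and Adamts2), while 24% of all genes rose and 25.7% fell. Past both thresholds there was 1 of 9, against 6.6% of all genes. In siSlc39a2 cells PE raised 2 (Timp1 and Adamts1) and lowered 5 (Mmp2, Mmp14, Timp2, Timp3 and Timp4), while 30.7% of all genes rose and 29.3% fell, and 1 of 9 passed both thresholds against 10.5% of all genes. The PE comparisons and the knockdown comparisons share their samples. For Mmp2, Mmp14 and Timp2, the difference between the PE effects in siSlc39a2 and siNeg cells was -0.18, -0.25 and -0.25 on the log2 scale, and edgeR adjusted p-values were 0.362, 0.27 and 0.126. In DESeq2 the difference passed for Timp2 (-0.27, adjusted p = 0.0245).

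The composition of the inhibitor transcripts differed between the groups. Timp1 made up 19.5, 16.6 and 15.2% of the summed Timp FPKM in the siNeg samples and 35.7, 36.4 and 37.7% in siNeg PE. It made up 28.9, 26.7 and 27.0% in siSlc39a2 and 46.6, 46.2 and 46.5% in siSlc39a2 PE. The groups did not overlap, and in siSlc39a2 PE the levels of Timp1 and Timp2 were close, with a Timp2 to Timp1 ratio of 1.06 to 1.07. These shares are descriptions of transcript levels without a test. They carry the uncertainty of Timp1 and of the size of the Timp2 fall.

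The summed FPKM of the 4 Mmp genes was 454 ± 21.5 in siNeg, 167 ± 7.77 in siSlc39a2, 446 ± 13.9 in siNeg PE, and 129 ± 11.8 in siSlc39a2 PE (SD, n = 3). The summed FPKM of the 4 Timp genes was between 374 and 394 in siNeg, 299 and 314 in siSlc39a2, 507 and 534 in siNeg PE, and 329 and 344 in siSlc39a2 PE. The protease sum was thus lower in all knockdown samples, and the inhibitor sum was highest in siNeg PE. Other Mmp genes are not in this sum. Among them, in siNeg and siSlc39a2, Mmp15 had 78.2 and 59.6 FPKM, Mmp23 35.3 and 16.9, Mmp19 19.6 and 10.9, and Mmp11 12.2 and 17.2. The ratio of the Timp sum to this sum of 4 Mmp genes was 0.863, 0.849 and 0.828 in siNeg, 1.78, 1.89 and 1.86 in siSlc39a2, 1.18, 1.16 and 1.19 in siNeg PE, and 2.82, 2.67 and 2.37 in siSlc39a2 PE. All 4 groups were separate. The ratio of Timp2 to Mmp14 transcripts was 1.60 ± 0.0709 in siNeg and 2.72 ± 0.161 in siSlc39a2 (SD, n = 3), and that of Mmp2 to Mmp14 was 1.45 ± 0.133 and 1.21 ± 0.0436. By mean count, Timp2 had 19920 in siNeg and 12200 in siSlc39a2, and Mmp14 had 15900 and 6563. The size of the Timp2 fall depends on the measure, as said above, and so do the sums and ratios that hold Timp2. Transcript ratios do not measure protein or protease activity.

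**Figure D3:**
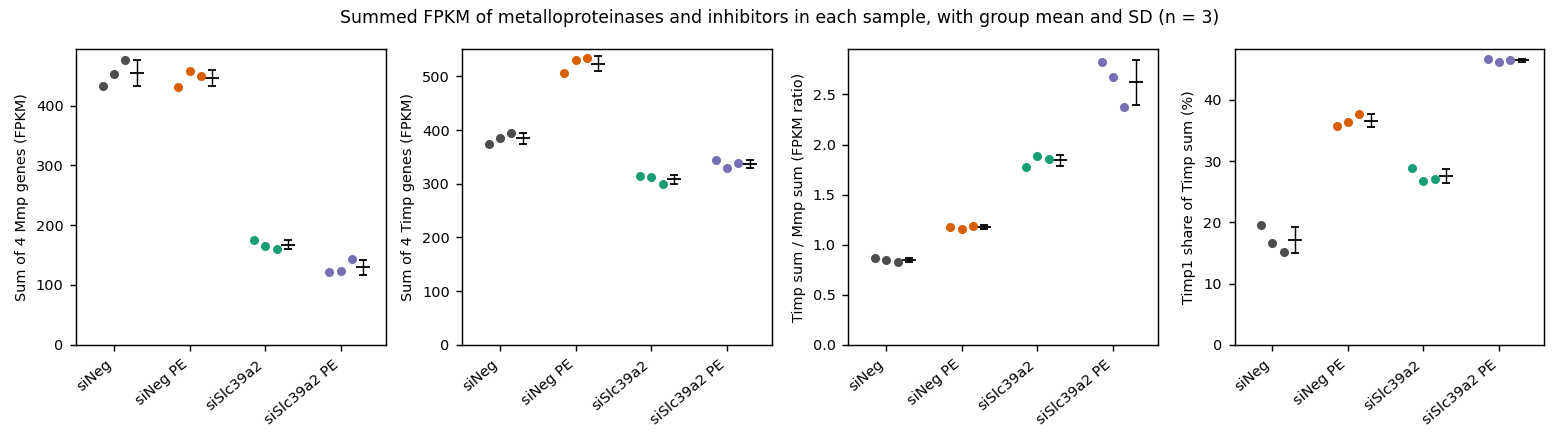
Summed FPKM of the 4 Mmp genes and of the 4 Timp genes, their ratio, and the share of Timp1 in the Timp sum (y axes), in each of 12 samples (points), with group mean and SD (black bars). The Timp to Mmp ratio goes from 0.828 at its lowest in siNeg to 2.82 at its highest in siSlc39a2 PE, with no overlap between groups.

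Of the 18 other metalloproteinases of a fixed list, 14 were analysed here and 9 had enough counts, and Mmp7, Mmp8, Mmp10, Mmp13 and Mmp28 did not. Mmp13, a collagenase, had at most 1 count in a sample. With knockdown without PE, 3 of the 9 fell and 2 rose, where 26.4% of all genes fell and 22.8% rose, and the median log2 fold change was -0.48. Mmp23 fell from 35.3 to 16.9 FPKM (log2 fold change -1.20, edgeR adjusted p = 1.37e-07), and with PE its log2 fold change was -0.48. Among PE-treated cells 3 of 9 fell and 1 rose, where 28.1% and 29.2% of all genes did. With PE in siNeg cells 4 fell and 5 did not pass, where 25.7% of all genes fell, and with PE in siSlc39a2 cells 2 fell and 3 rose, where 29.3% and 30.7% did. Shares near those of all genes are not a result about this list.

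Of 22 further Adamts and Adamtsl genes, 20 were tested. With knockdown 9 fell and 3 rose without PE, where 26.4% of all genes fell and 22.8% rose. With PE 12 fell and 3 rose, where 28.1% and 29.2% did. The median log2 fold changes were -0.24 and -0.44. Adamts3 and Adamts14, which process procollagens as Adamts2 does, fell by 1.23 and 1.08 on the log2 scale without PE. With PE, Adamts3 fell by 1.44 and Adamts14 by 1.06. Adamts15 fell by 1.19 without PE, and Adamtsl2, a matrix protein without protease activity, fell by 1.25 with PE. Adamts6 rose with knockdown among PE-treated cells (log2 fold change 1.18, edgeR adjusted p = 0.000337). PE raised Adamts19 from 0.587 to 2.31 FPKM in siNeg cells and from 0.663 to 3.26 FPKM in siSlc39a2 cells (log2 fold changes 1.89 and 2.36). PE also raised Adamts9, from 2.74 to 6.46 FPKM in siNeg cells and from 2.97 to 6.77 FPKM in siSlc39a2 cells (log2 fold changes 1.18 and 1.22). In all, 3 rose and 7 fell with PE in siNeg cells, where 24% of all genes rose and 25.7% fell, and 5 rose and 9 fell in siSlc39a2 cells, where 30.7% and 29.3% did. Adamtsl2 and Adamts7 fell there by 1.65 and 1.53, and the counts of Adamts7 were not whole in any sample.

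Of 19 genes that activate or control these proteases, 16 were tested. With knockdown 7 fell and 3 rose, without and with PE alike in number, where 26.4% of all genes fell and 22.8% rose without PE and 28.1% and 29.2% with PE. Past both thresholds 6 fell and 3 rose without PE, against 9.78% of all genes in either direction. With PE 3 fell and 2 rose past both, against 11.6%. The median log2 fold changes were -0.13 and -0.03. Lrp1, an endocytic receptor that clears Mmp and Timp proteins, fell from 36.7 to 11.5 FPKM without PE (log2 fold change -1.81, edgeR adjusted p = 1.19e-06) and by 1.74 on the log2 scale with PE. Plg, the plasminogen gene, rose by log2 fold changes of 1.43 without PE and 1.57 with PE, and had 9 to 15 counts in siNeg and 29 to 45 in siSlc39a2. Serpinb2, an inhibitor of plasminogen activators, had 0 to 1 counts in siNeg, 9 to 13 in siSlc39a2, 3 to 11 in siNeg PE, and 39 to 43 in siSlc39a2 PE. The others past both thresholds without PE were better expressed except A2m, which rose by a log2 fold change of 1.09 with overlapping samples. Pcolce fell by 1.25 on the log2 scale, Serpine2 by 1.14, Plat by 1.09 (from 58.7 to 30.4 FPKM), and Pcsk6 and Reck by 1.08 each. Of these, Pcolce (-1.26) and Serpine2 (-1.17) also passed both with PE. With PE 5 of the 16 rose and 4 fell in siNeg cells, against 24% and 25.7% of all genes, and 6 rose and 3 fell in siSlc39a2 cells, against 30.7% and 29.3%. In siNeg cells A2m, a broad protease inhibitor, rose with PE by a log2 fold change of 1.01 (edgeR adjusted p = 0.0164).

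Transcripts of matrix proteins that these enzymes cleave or process fell with knockdown. Of 17 tested, 16 fell without PE and Vcan did not pass, and 13 of them fell by more than 1 on the log2 scale, where 26.4% of all genes fell and 9.78% passed both thresholds in either direction. The median log2 fold change was -1.37. With PE 13 fell, 5 of them past both thresholds, where 28.1% of all genes fell and 11.6% passed both, 4 did not pass, and the median was -0.77. Col1a1 and Col1a2, the chains of type I collagen, fell by 1.68 and 1.69 on the log2 scale without PE, and the counts of Col1a2 were not whole. Eln, elastin, fell by 1.93 and Nid2, a basement membrane protein, by 1.95 with PE. Acan, the Adamts1 substrate aggrecan, had 15 to 19 counts in siNeg and 0 to 5 in siSlc39a2. With PE it had 2 to 3 counts in siNeg PE and 2 in siSlc39a2 PE, and did not pass (log2 fold change -0.22, edgeR adjusted p = 0.829). Vcan, versican, had log2 fold changes of -0.19 and -0.12 with knockdown, neither past the threshold. PE in siNeg cells raised 6 of the 17 and lowered 7, against 24% and 25.7% of all genes. Among them were Nid2 (log2 fold change 1.07), Eln (-1.02) and, at low counts, Acan (-2.93). In siSlc39a2 cells PE raised 7 and lowered 4, against 30.7% and 29.3%, among them Lamc1 (log2 fold change 1.10) and Eln (-1.51).

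**Figure D4:**
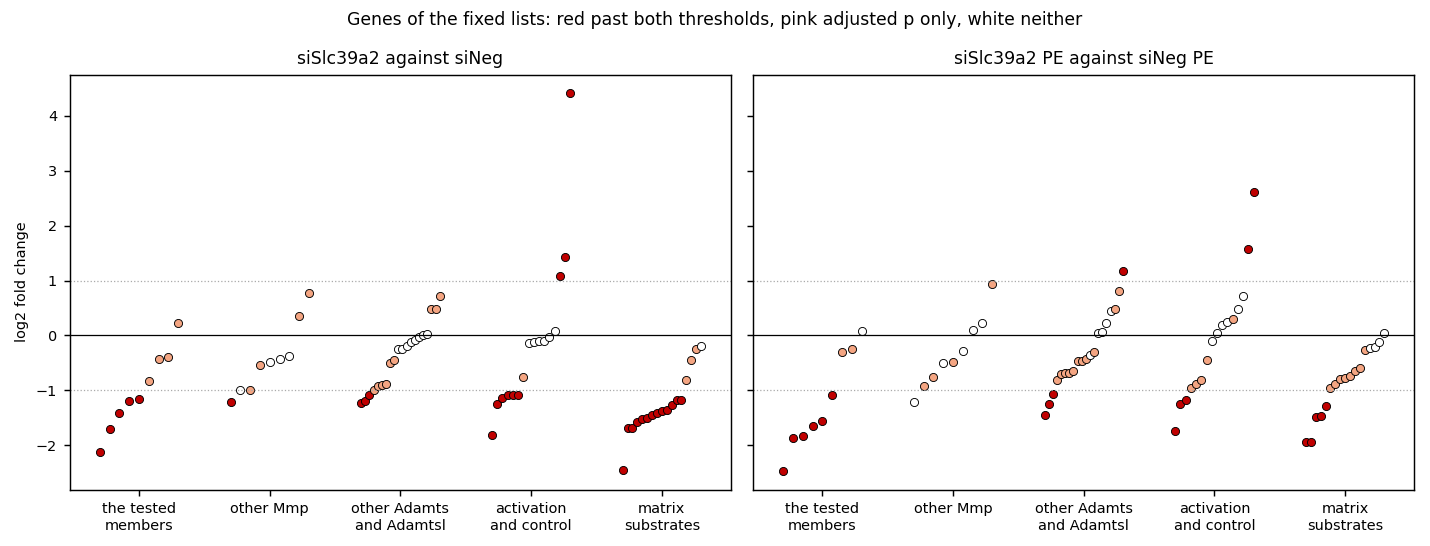
Log2 fold changes (y axis) of Slc39a2 knockdown without PE (left) and with PE (right), each point a gene, for the 9 tested genes and the 4 fixed lists. Red points pass both thresholds, pink points the adjusted p alone and white points neither. Of the 17 matrix substrates, 16 on the left and 13 on the right fell.

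Fibroblasts are a main source of Mmp2, Mmp14 and Adamts2 in the heart. Their 10 markers summed to between 2000 and 2610 FPKM in siNeg, 864 and 938 in siSlc39a2, 1450 and 1850 in siNeg PE, and 592 and 817 in siSlc39a2 PE. Col1a1 and Col1a2, which are also among the matrix substrates above, made up 74.6 to 90.8% of this sum in the 12 samples. The other 8 markers summed to between 209 and 247 FPKM in siNeg, 139 and 170 in siSlc39a2, 229 and 291 in siNeg PE, and 123 and 207 in siSlc39a2 PE. Both sums were lower in every knockdown sample than in the siNeg samples of the same treatment. With knockdown without PE, 6 of 10 fell, 1 rose and 3 did not pass, where 26.4% of all genes fell and 22.8% rose. The members of the list did not move alike. Col1a1, Col1a2, Thy1, Postn, Lum and Dcn fell, with log2 fold changes from -1.69 to -0.81. Tcf21, a transcription factor of cardiac fibroblasts, rose by a log2 fold change of 0.34 (edgeR adjusted p = 0.0024), while Pdgfra and Ddr2, receptors on fibroblasts, had 0.12 and -0.04 and Mfap5 had -1.19, none past the threshold. With PE 6 fell again, against 28.1% of all genes, and Tcf21 rose by 0.51. Per 1000 FPKM of the marker sum, which is thus largely a ratio to type I collagen, Mmp2 had 114 ± 16.6 FPKM in siNeg, 103 ± 8.62 in siSlc39a2, 156 ± 18.7 in siNeg PE, and 108 ± 12.2 in siSlc39a2 PE (SD, n = 3), and Timp2 had 126 ± 12.5, 230 ± 16.5, 188 ± 23.9 and 254 ± 43.1 in this order. In bulk RNA, fewer fibroblasts and less of these transcripts per fibroblast cannot be told apart.

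Cardiomyocyte markers summed to between 22100 and 25200 FPKM in siNeg and 22000 and 23000 in siSlc39a2, and 5 of 10 fell with knockdown, against 26.4% of all genes, of which Myh6 by more than 1 on the log2 scale (-1.10). Their sums were between 23700 and 25600 in siNeg PE and between 20500 and 22900 in siSlc39a2 PE, where 5 of 10 fell as well, against 28.1%. Markers of smooth muscle cells and pericytes summed to between 111 and 135 FPKM in siNeg, 67.1 and 77.8 in siSlc39a2, 191 and 235 in siNeg PE, and 241 and 250 in siSlc39a2 PE. Of this sum, Cnn1 alone was 18.3 to 20.8 FPKM in siNeg and 8.88 to 9.61 in siSlc39a2. With PE, Cnn1 was 106 to 138 FPKM in siNeg PE and 170 to 177 in siSlc39a2 PE. From siNeg to siNeg PE, Cnn1 rose, Pdgfrb and Notch3 fell and 3 of 6 did not pass. Of all genes, 24% rose and 25.7% fell there. All 6 fell with knockdown without PE, where 26.4% of all genes fell. With PE 2 of 6 fell (Pdgfrb and Notch3) and 1 rose (Cnn1), where 28.1% of all genes fell and 29.2% rose. Endothelial markers stayed between 4.30 and 7.32 FPKM in sum over the 12 samples, and 2 of 7 tested fell with knockdown without PE, a share near the 26.4% of all genes. With PE 7 of 7 did not pass. The part of these cell types in the fall of the proteases was not tested.

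**Figure D5:**
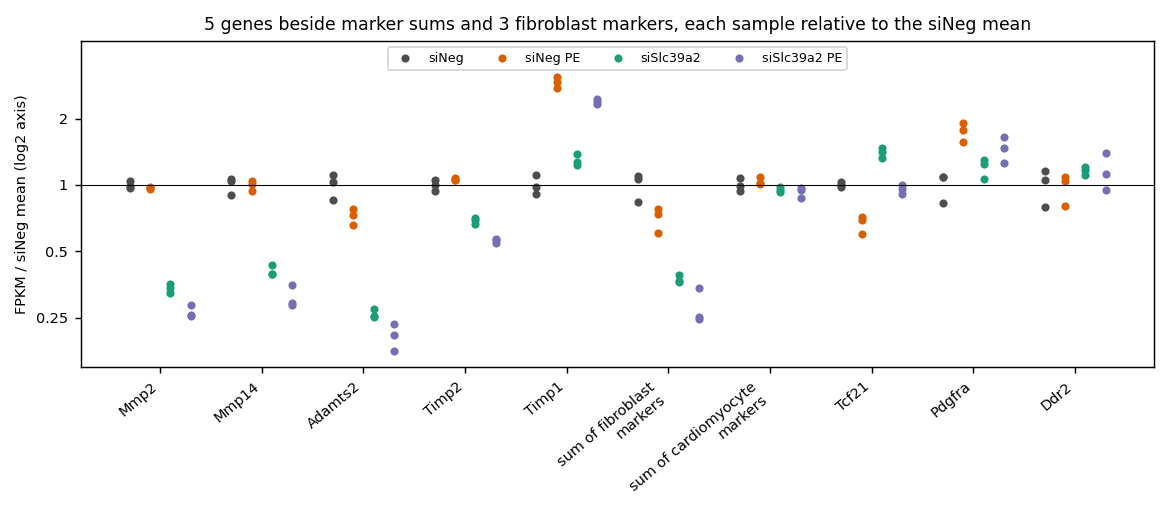
FPKM of Mmp2, Mmp14, Adamts2, Timp2 and Timp1, of the fibroblast and cardiomyocyte marker sums, and of the fibroblast markers Tcf21, Pdgfra and Ddr2, each divided by its siNeg mean (y axis, log2 scale), 3 samples per group. The fibroblast sum is lower together with Mmp2, Mmp14 and Adamts2 in the knockdown samples, while Tcf21 lies above the siNeg level in siSlc39a2 and Ddr2 overlaps it.

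Genes with the most similar pattern over the 4 group means were sought among 11748 tested genes with a mean log2 CPM above 1. Likeness was the root mean square difference of the group means of log2 CPM, each centred on its gene, so smaller is closer. For Mmp2 they were Col5a3 (0.0699) and Lrp1 (0.0784), for Mmp14 Ptprv (0.0668) and Col26a1 (0.0725), and for Adamts2 Egflam (0.0252) and Dpt (0.0772). For Mmp9 they were Trpm4 (0.0314) and Adamts3 (0.0512). Timp2 was closest to Vsir (0.0211) and Gpld1 (0.0394), and Timp4 to Ypel1 (0.0693) and Dgcr2 (0.13). The counts of Gpld1 and Dgcr2 were not whole in most samples. Timp1 was closest to Stil (0.044) and Mcm10 (0.0577), which had 40 to 96 and 66 to 113 counts in siNeg. All these are the nearest of 11748 genes over only 4 group means, and a shared function was not tested.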

How the data were processed

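Total RNA of 12 NRVM cultures was sequenced. The authors deposited expected counts per gene, which were not normalized, and FPKM values of the same 18483 genes. The submitters' processing notes name HISAT, Bowtie2 and the build Rnor_6.0, without versions. The counting program and the annotation are not given in the sources used here. Of the counts, 78.7% were whole numbers, and 70.0% of genes were whole in every sample. Where the fractions come from was not tested. Every column of the tables matched a labelled sample.

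Counts were rounded and genes with low counts removed by filterByExpr of edgeR 4.0.16 in R 4.3.3, which kept 13967 genes and left out 4516. After TMM normalization, the 4 groups were fitted in 1 model with 8 residual degrees of freedom and compared by edgeR's quasi-likelihood test, with p-values adjusted over all genes tested by the Benjamini-Hochberg method. Genes passed at an adjusted p below 0.05 and, where said, an absolute log2 fold change above 1. A standard error is the log2 fold change divided by the root of F. Levels and sums are FPKM as given by the authors, without the TMM factors, which were 0.9267 to 0.9605 in siNeg and 1.0386 to 1.0661 in siSlc39a2. Intervals at 95% of summed counts and the limit of 3 counts cover counting error only. The study used limma after normalization between arrays on values whose unit is not named. Here limma 3.58.1 on log2(FPKM + 1) and log2(FPKM + 0.1) was an alternative, beside DESeq2 1.42.0, RLE size factors, no filter, the groups of a comparison alone, a replicate block, the adjusted p without the fold threshold (for the difference of knockdown effects, with it), and leaving out each replicate. The fits were tested on simulated data.

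The members and lists were chosen with earlier results of these data known. Named are the 10 members and Slc39a2, up to 3 genes of each list per comparison with the largest changes past both thresholds and no overlap of groups, the 2 genes most like each member past both thresholds, and cell type markers. Adamts14 with PE, Vcan and the list genes with too few counts were named after their values were seen. So were Mmp11, Mmp15, Mmp19, Pcolce, Serpine2, Plat, Pcsk6, Reck, and A2m with knockdown. Genes overlapping a member come from RefSeq. Replicates are biological per the labels. The labels and the study's culture methods give different lengths of PE treatment, and that of the labels was used. 1 gene of the list on activation and control is not reported here and was left out of the counts of that list. Protein sequences were not used here.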

Additional observations from a re-analysis of the deposited data

Results flagged for a closer look

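The effect of Slc39a2 knockdown on Timp1 differed between PE-treated and untreated cells by -0.52 on the log2 scale (edgeR's test of the difference, adjusted p = 0.0343). By FPKM, Timp1 was higher in 3 of 3 siSlc39a2 samples than in any siNeg sample, and lower in 3 of 3 siSlc39a2 PE samples than in any siNeg PE sample. FPKM does not carry the TMM factors of the test, which were 0.9267 in siNeg replicate 1 and 1.0661 in siSlc39a2 replicate 3. Their counts of Timp1 were 1390.59 and 1355.29, at total counts of 27332138 and 24065539. The separation without PE thus depends on the scaling. With each library left out in turn the difference was between -0.63 and -0.45, and its adjusted p passed 0.05 in 3 of 12 such fits (without siNeg replicate 1, siSlc39a2 replicate 3 or siSlc39a2 PE replicate 1) and was at most 0.0988. In the other settings it was between -0.60 and -0.53. The counts of Timp1 were not whole in any sample.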

How the results depend on the processing

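Of 846 alternatives for the 45 fold changes, 793 kept direction and side of the adjusted p threshold, 31 lost the threshold, 11 gained it and 11 reversed. The reversed ones were small. In both limma settings, PE in siNeg cells gave 0.057 for Mmp2, 0.10 for Mmp14 and 0.19 for Timp2, and knockdown with PE gave -0.029 (log2(FPKM + 1)) and -0.033 (log2(FPKM + 0.1)) for Adamts1. With limma on log2(FPKM + 1) the difference of knockdown effects was 0.033 for Mmp9 and 0.017 for Timp4. Leaving out siNeg replicates 1 and 3 in turn, PE gave -0.07 and 0.022 for Timp2. At the adjusted p alone, 1 member was higher and 8 lower with knockdown without PE, 8 were lower with knockdown with PE (0 higher in edgeR, also at an unadjusted p below 0.05 and in DESeq2), 2 were lower with PE in siNeg cells, and 2 were higher and 5 lower with PE in siSlc39a2 cells. With limma on log2(FPKM + 1), whose pseudocount shrinks low genes, 3 were lower with knockdown, both without and with PE, and with PE in siSlc39a2 cells 1 was higher and 0 lower (6 at an unadjusted p below 0.05 and 5 at the adjusted p in limma, 1 past both thresholds in DESeq2). With log2(FPKM + 0.1) 1 was higher there. Without the filter, Mmp3 was added to Timp1, so 2 were higher with PE in siNeg cells. In the fit on siSlc39a2 and siNeg alone, the adjusted p of the Timp1 rise was 0.0553. The difference of knockdown effects passed for 2 members with DESeq2 (Timp1 and Timp2) and for 0 in edgeR with the fold threshold (5 at an unadjusted p below 0.05 without it). Leaving out 1 replicate, it passed for 0 to 3 members, and the members lower with knockdown without PE numbered 4 to 5. Same-numbered samples of compared groups deviated together with correlations from -0.0904 to 0.32, not over 0.1 in every pair of any comparison. They went from 0.0535 to 0.315 for siNeg PE against siNeg and from 0.00387 to 0.32 for siSlc39a2 PE against siNeg PE. For siSlc39a2 against siNeg they went from -0.0107 to 0.025, and for siSlc39a2 PE against siSlc39a2 from -0.0904 to 0.221. With 3 pairs per comparison, these values do not settle whether same-numbered samples share an origin, and the main fit did not pair them. With the replicate block, the members past both thresholds kept their numbers (5 and 6 lower with knockdown), Adamts2 passed the adjusted p with PE in siSlc39a2 cells (0.042), and the genes whose knockdown effect differed went from 504 to 1052. With limma on log2(FPKM + 1), the genes past both thresholds were 610, 674, 287 and 583, against 1366, 1621, 922 and 1469 in edgeR. For the difference of knockdown effects, the fit on the groups of a comparison alone was not run. Depth limited Mmp3, Mmp9 and Timp4.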
